A study of Rattus norvegicus with 49 samples.

Results

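The genes described here are 10 transcripts of the response to DNA damage and growth arrest in rat liver: the p53 targets Ccng1, Cdkn1a, Mdm2, Bax, Btg2, Aen and Phlda3, and the stress genes Gadd45a, Gadd45b and Gadd45g. They were chosen by name, as the probes whose RefSeq accession maps to these symbols. All 10 were found among 15154 named genes, with 13 of the 30367 probes on the array, and all 13 probes passed the filter on low signal that left 17661 probes for testing. Liver came from F344 rats (an inbred strain) of both sexes, aged 7 to 8 weeks at the first dose. They received furan in corn oil by gavage, daily on 5 days a week, for 90 days. The doses were 0.03, 0.12, 0.5 and 2 mg/kg a day, and the controls, at 0 mg/kg, received the oil. Each sex and dose had deposited arrays of 5 rats, except for 4 males at 0.03 mg/kg. The liver RNA of each rat was hybridised to its own array beside a universal rat reference RNA prepared from mixed tissues, and every value below is a log2 ratio of liver over reference for 1 probe, or a difference between such ratios.

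The transcription factor p53 is held low in unstressed cells by Mdm2, an E3 ubiquitin ligase that is itself a p53 target. DNA damage releases p53 from Mdm2, and the targets that then rise slow the cell cycle (Cdkn1a, Btg2), feed back on p53 (Mdm2, Ccng1) or favour cell death (Bax, Aen, Phlda3). Agents that damage DNA directly are known to raise several of these targets in rat liver together, whereas agents that act through toxicity and regrowth often change stress and detoxification genes such as the targets of NRF2, a sensor of oxidative stress. The Gadd45 proteins are small nuclear stress proteins that bind the kinase Map3k4 and the sliding clamp Pcna. Gadd45a is a p53 target, while Gadd45b and Gadd45g are known to respond mainly to cytokines and growth signals.

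The sequences before the start sites are shown to set the p53 targets beside the Gadd45 genes. They are the 250 bases upstream of each start site in RefSeq on the GRCr8 build. There 9 of the 10 genes had an entry, and Bax had none. Capitals mark a match to the p53 consensus decamer in the first 4 sequences and to CACGTG, the E-box bound by MYC and clock factors, in the last.
Ccng1, chr10:25684877-25685126, minus strand: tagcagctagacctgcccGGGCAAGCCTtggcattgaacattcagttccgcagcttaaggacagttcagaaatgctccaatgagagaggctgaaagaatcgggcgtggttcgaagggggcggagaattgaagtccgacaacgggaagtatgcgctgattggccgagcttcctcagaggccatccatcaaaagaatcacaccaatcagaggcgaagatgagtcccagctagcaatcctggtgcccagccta
Cdkn1a, chr20:7150682-7150931, plus strand: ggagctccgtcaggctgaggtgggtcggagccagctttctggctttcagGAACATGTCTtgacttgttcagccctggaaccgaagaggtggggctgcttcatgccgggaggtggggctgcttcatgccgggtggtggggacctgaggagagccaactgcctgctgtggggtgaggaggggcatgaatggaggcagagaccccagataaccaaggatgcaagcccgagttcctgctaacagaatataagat
Aen, chr1:142224283-142224532, plus strand: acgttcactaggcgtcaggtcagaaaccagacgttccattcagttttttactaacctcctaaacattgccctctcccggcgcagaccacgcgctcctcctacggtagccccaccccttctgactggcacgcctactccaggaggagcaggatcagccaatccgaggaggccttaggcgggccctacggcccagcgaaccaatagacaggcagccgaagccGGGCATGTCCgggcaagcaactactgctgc
Gadd45a, chr4:97486800-97487049, minus strand: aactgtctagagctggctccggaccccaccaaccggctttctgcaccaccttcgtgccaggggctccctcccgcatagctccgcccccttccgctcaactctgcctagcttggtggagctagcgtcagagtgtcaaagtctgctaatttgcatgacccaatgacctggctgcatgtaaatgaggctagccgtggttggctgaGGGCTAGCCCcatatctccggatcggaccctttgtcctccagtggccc
Gadd45g, chr17:13530352-13530601, minus strand: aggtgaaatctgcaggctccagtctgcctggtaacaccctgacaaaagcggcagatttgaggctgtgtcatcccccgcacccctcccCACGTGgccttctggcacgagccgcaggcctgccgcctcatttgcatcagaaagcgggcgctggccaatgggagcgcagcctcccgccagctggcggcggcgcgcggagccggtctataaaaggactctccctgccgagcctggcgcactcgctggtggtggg
Both strands were searched over the 250 upstream bases and the 50 bases that follow, and the motifs searched did not overlap each other in these genes. The p53 decamer, searched for singly and not in pairs, was matched in 4 of the 9 entries and in 7.98% of 33469 windows of the same length. Among the p53 targets Mdm2, Btg2 and Phlda3 had no match to it, and neither had Gadd45b or Gadd45g. CACGTG was matched in Aen, Gadd45b and Gadd45g and in 6.42% of all windows. TGACGTCA, the cyclic AMP response element, was matched in Btg2 and in 1.83% of all windows. These matches describe the letters in the windows, and binding was not measured.

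Between 37.9% and 71.2% of spots had a liver signal well above background, except on 1 of the 49 arrays (male 26, 0.03 mg/kg), where 5.06% did. That array was left out of the results below unless stated, which leaves 48 arrays and 3 males at 0.03 mg/kg. The labels mention an eliminated male array without naming it, and it was not possible to tell whether this is the one. The arrays came from 8 slides, and slide was a block in the model, because arrays of a slide resembled each other (a correlation of 0.60 over all probes when slide was fitted as a random effect). All 8 hepatocyte markers, Alb and Apoa1 among them, were above background on all 48 arrays. A call required an adjusted p of 0.05 or less and a fold change of 1.5 or more, in limma with Benjamini-Hochberg adjustment over all 17661 probes, and the brightest probe of each gene stands for it.

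In males at 2 mg/kg, 1 of the 10 genes was called higher (Ccng1) and 1 lower (Gadd45g). Over all probes, 5.07% were called in this comparison, 2.67% higher and 2.4% lower. An adjusted p of at most 0.05 whatever the fold was reached by 5 of the 10 genes (Ccng1, Mdm2 and Bax higher, Cdkn1a and Gadd45g lower), against 23.3% of all probes. The median change over the 7 p53 targets was 0.10, against -0.02 over all probes, and 5 of the 7 lay above 0. Aen and Phlda3 differed from the controls by 0.10 ± 0.10 and 0.06 ± 0.12 (SE), with 95% intervals that included 0.

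**Figure D1:**
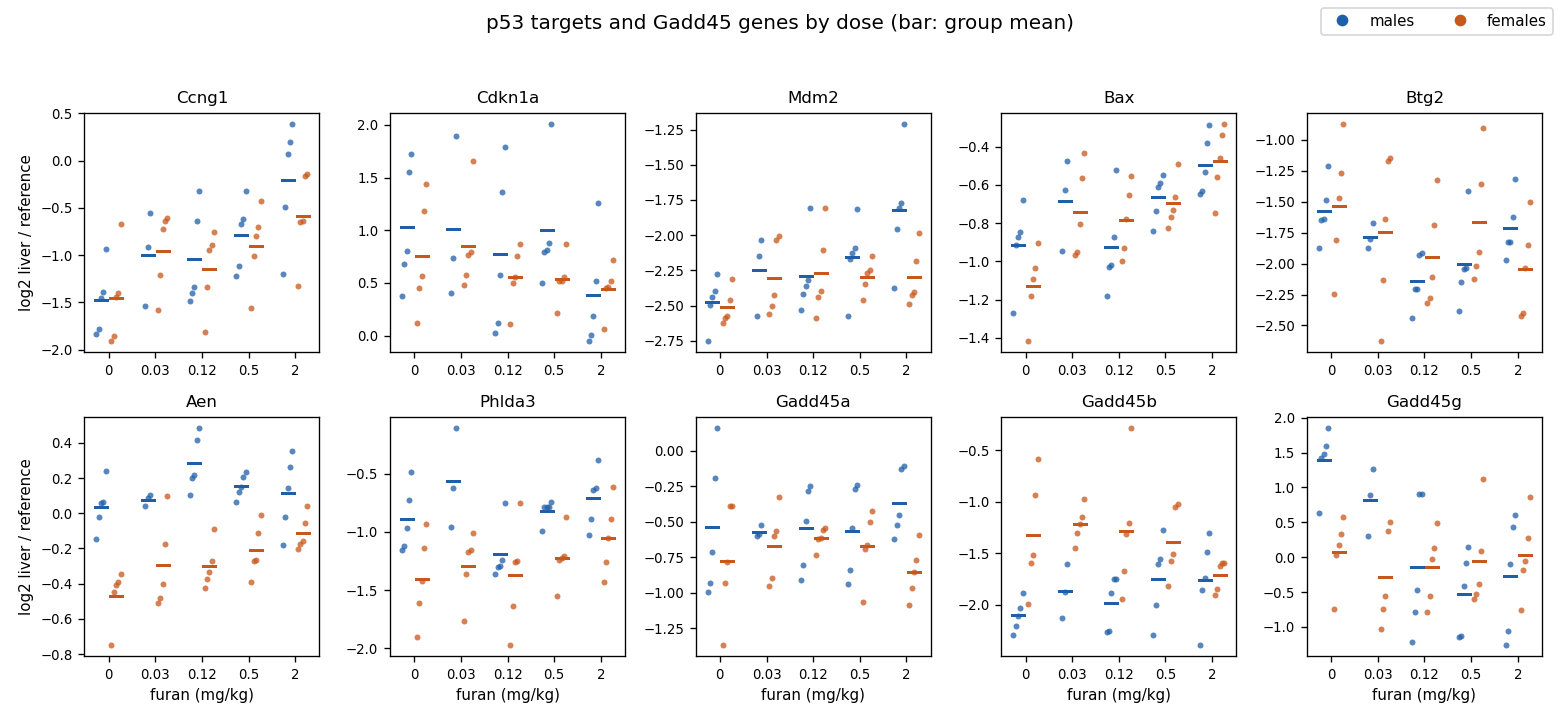
Log2 ratio of liver over reference for the brightest probe of each gene on each of 48 arrays, by furan dose in mg/kg, with males in blue, females in orange and a bar at each group mean. Bax lies above all controls of the same sex on every array at 2 mg/kg, and Gadd45g lies above the 0.5 and 2 mg/kg males on every control male array.

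Ccng1 encodes cyclin G1, which acts with a phosphatase on Mdm2 and is among the most readily induced p53 targets in rodent liver. From the lowest to the highest array, its log2 ratio was -1.83, -1.78, -1.46, -1.39 and -0.93 in control males and -1.20, -0.49, 0.06, 0.20 and 0.39 in males at 2 mg/kg. Of the treated arrays 4 of 5 lay above all controls, and the lowest, on slide 2, lay within their range. With slide as a block Ccng1 rose by 1.01 ± 0.11 (SE; 95% interval 0.79 to 1.23), a 2.02-fold change (limma adjusted p = 8.3e-08). On the 3 slides that held both a control and a 2 mg/kg male, the differences were 0.63, 1.29 and 1.32. It was called under all 10 other ways of processing and without each of the 10 arrays in turn, with changes of 0.94 to 1.27 and 0.93 to 1.12.

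Mdm2 had log2 ratios of -2.75, -2.49, -2.44, -2.39 and -2.27 in control males and -2.38, -1.95, -1.81, -1.77 and -1.21 in males at 2 mg/kg. The treated arrays were higher in 4 of 5 cases. The fitted rise was 0.55 ± 0.12 (SE, 1.47-fold, limma adjusted p = 0.000569), just under the fold required for a call, and it was called under 3 of 10 other ways of processing. On slide 2 the difference was 0.06, and on the other slides with both groups it was 0.94 and 1.06; without male 2 or 86, both on slide 2, or male 81, Mdm2 was called. A dimmer probe of Mdm2 differed by 0.17 ± 0.08 (SE, limma adjusted p = 0.115), which did not pass the test. Bax, the membrane pore protein that starts mitochondrial cell death, had log2 ratios of -1.27, -0.91, -0.87, -0.85 and -0.68 in control males and -0.65, -0.63, -0.53, -0.38 and -0.29 at 2 mg/kg. These groups did not overlap. The fitted rise was 0.32 ± 0.09 (SE, 1.25-fold, limma adjusted p = 0.00912), below the fold required. Bax and Gadd45g were the 2 of 10 genes whose treated males lay wholly beyond the control males, which held for 4.26% of all probes.

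**Figure D2:**
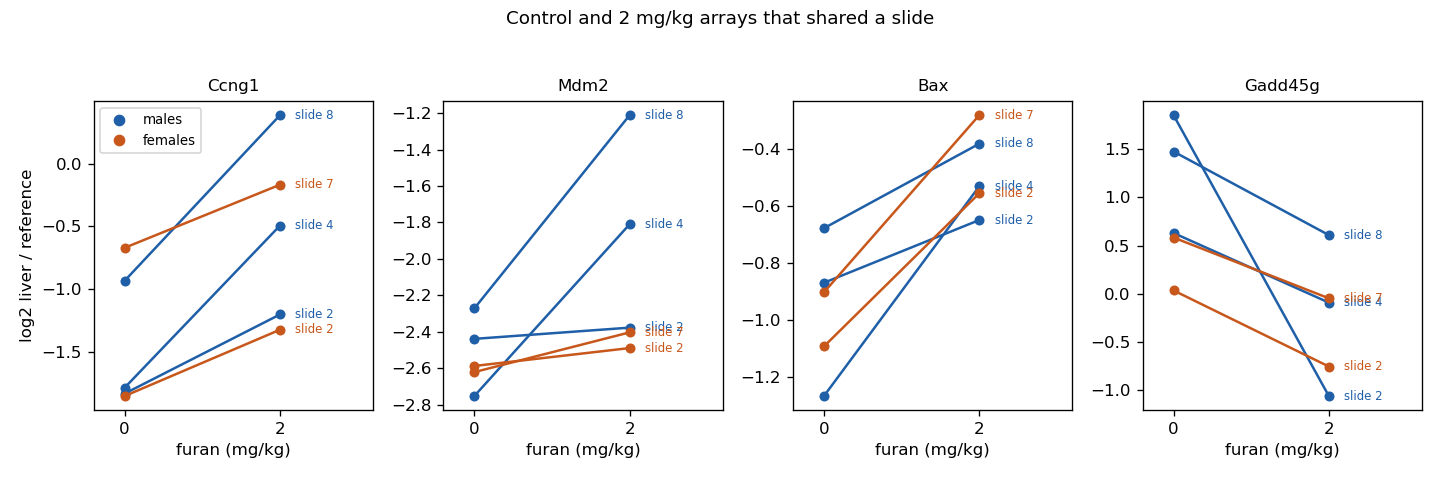
Log2 ratio of liver over reference on control and 2 mg/kg arrays that shared a slide, joined by a line, with males in blue (3 slides) and females in orange (2 slides). Ccng1 and Bax were higher at 2 mg/kg on each of these slides in both sexes, and Gadd45g was lower on each.

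Cdkn1a encodes p21, the inhibitor of cyclin-dependent kinases through which p53 halts the cell cycle, and its 2 probes went opposite ways. On the brighter probe the log2 ratio was 0.37, 0.68, 0.80, 1.55 and 1.73 in control males and -0.05, 0.01, 0.19, 0.52 and 1.26 at 2 mg/kg. On the dimmer probe it was -0.72, -0.69, -0.44, -0.05 and 0.21 in control males and 0.14, 0.17, 0.88, 0.88 and 1.19 at 2 mg/kg. The arrays at 2 mg/kg thus tended to lie lower on the brighter probe and higher on the dimmer one, with overlap on both. The brighter probe fell by 0.40 on the log2 scale (SE 0.14, limma adjusted p = 0.0334), which is under the fold required, and the dimmer probe rose by 1.04 ± 0.26 (SE, 2.05-fold, limma adjusted p = 0.00329) and was called. Both probes carry the same RefSeq accession, and both were above background on all 48 arrays. Without control male 2 the brighter probe differed by -0.25. At the lower doses the dimmer probe differed from control males by 0.81 ± 0.26 (SE) at 0.5 mg/kg, 0.90 ± 0.26 (SE) at 0.12 mg/kg and 0.56 ± 0.31 (SE) at 0.03 mg/kg, with limma adjusted p of 0.193, 0.113 and 1, and none of these passed the test. The rise on the dimmer probe at 2 mg/kg lost its call, at 0.99, when slide was not a block. The direction for Cdkn1a in males therefore depends on the probe, and the mean over both probes was 0.32 with no call.

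**Figure D3:**
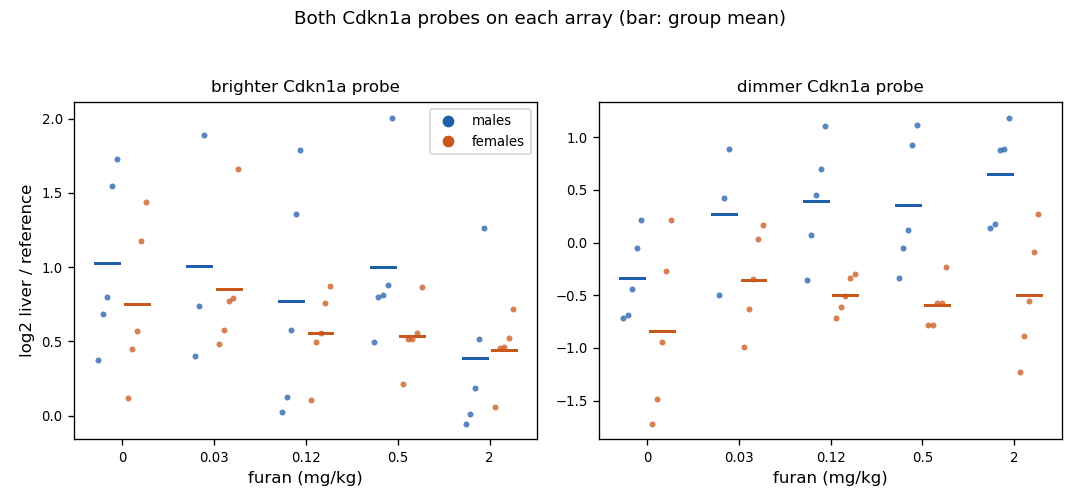
Log2 ratio of liver over reference for the brighter (left) and dimmer (right) Cdkn1a probe on each of 48 arrays, by furan dose in mg/kg, with males in blue, females in orange and a bar at each group mean. The male mean is 1.03 at 0 and 0.38 at 2 mg/kg on the brighter probe, and -0.34 and 0.65 on the dimmer one.

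The other p53 targets gave no call in males at 2 mg/kg. Btg2, an antiproliferative gene that is also an immediate early gene, had log2 ratios of -1.88, -1.65, -1.64, -1.49 and -1.22 in control males and -1.97, -1.83, -1.83, -1.62 and -1.32 at 2 mg/kg. The groups overlapped, and the fitted difference was -0.18 ± 0.26 (SE, 95% interval -0.71 to 0.36). Aen, a nuclease of apoptosis, ranged from -0.15 to 0.24 in control males and from -0.18 to 0.36 at 2 mg/kg. Phlda3, an inhibitor of AKT signalling, ranged from -1.15 to -0.49 and from -1.02 to -0.38. For both genes the 95% interval of the difference, -0.11 to 0.30 for Aen and -0.18 to 0.29 for Phlda3, lay below a 1.5-fold change.

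**Figure D4:**
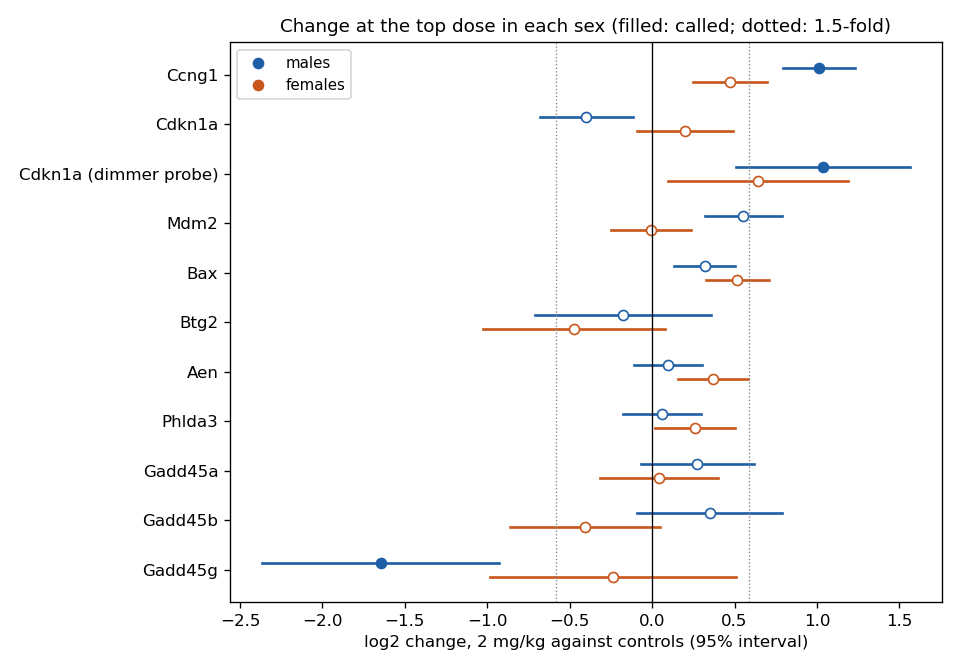
Fitted log2 change at 2 mg/kg against the controls of the same sex with its 95% interval, slide as a block, for each gene and for the dimmer Cdkn1a probe, with males in blue and females in orange. Filled points were called and dotted lines mark a 1.5-fold change; the filled points are Ccng1, the dimmer Cdkn1a probe and Gadd45g, all in males.

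Of the 3 Gadd45 genes, Gadd45g fell and the other two did not pass the test in males at 2 mg/kg. Gadd45g had log2 ratios of 0.63, 1.42, 1.48, 1.59 and 1.85 in control males and -1.26, -1.06, -0.09, 0.44 and 0.61 at 2 mg/kg. Every treated array lay below every control array. It fell by 1.65 on the log2 scale (SE 0.35, 95% interval -2.36 to -0.93), to 0.32 of the control level (limma adjusted p = 0.000795). On the 3 slides with both groups the differences were -2.92, -0.87 and -0.72, so that slide 2 gave the largest of the 3. The fall was called under all 10 other ways of processing and without each of the 10 arrays in turn. Gadd45a, the p53 target of the family, had mean log2 ratios of -0.53 ± 0.50 in control males and -0.37 ± 0.23 at 2 mg/kg (SD, n = 5 each), with all treated arrays within the control range, and a fitted difference of 0.27 ± 0.17 (SE, limma adjusted p = 0.253). Gadd45b ranged from -2.29 to -1.88 and from -2.39 to -1.30, a difference of 0.35 ± 0.22 (SE, limma adjusted p = 0.255).

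The lower doses were compared with the same control males. At 0.5 mg/kg, 1 of the 10 genes was called, against 0.362% of all probes, and it was again Gadd45g. Its log2 ratio was -1.14, -1.12, -0.42, -0.08 and 0.14, all below the lowest control, and it fell by 2.03 on the log2 scale (SE 0.36, limma adjusted p = 0.00421). At 0.12 mg/kg, 1 of the 10 genes was called, against 0.3% of all probes. An unadjusted limma p under 0.05 was reached at 0.5 mg/kg by 2 of the 10 genes, against 1982 of the 17661 probes. At 0.12 mg/kg it was reached by 5 of the 10 genes, against 1154 of the probes. Of these 5, Ccng1 and Aen were higher, and Btg2, Phlda3 and Gadd45g were lower. Gadd45g was -1.22, -0.79, -0.48, 0.91 and 0.91 there and fell by 1.46 on the log2 scale (SE 0.35, limma adjusted p = 0.0377), with 2 arrays inside the control range. That call was lost under 7 of 10 other ways of processing, and without 4 of the control males (2, 3, 4 or 5) or males 44, 48 or 52 in turn. The call at 0.5 mg/kg was lost with all 49 arrays and no slide block and on the values of the authors' matrix. Those matrix values, here and below, were fitted on all 49 arrays and without the slide block. At 0.03 mg/kg, 0 of the 10 genes and 0% of all probes were called. Below an unadjusted p of 0.05 in limma were 0 of the 10 genes, against 728 of the 17661 probes. Gadd45g was 0.31, 0.90 and 1.27 in those 3 males, a difference of -0.49 ± 0.42 (SE, 95% interval -1.35 to 0.37). The 4 dose groups share their 5 control arrays, so these differences are not independent of each other.

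In males 0 of the 7 p53 targets were called at the lower doses by their brightest probes, and their median change was 0.10 at 0.5 mg/kg, -0.05 at 0.12 mg/kg and 0.14 at 0.03 mg/kg. The Ccng1 difference was 0.32 ± 0.11 (SE) at both 0.5 and 0.12 mg/kg, with limma adjusted p of 0.23 and 0.256, and neither passed the test. Between 0.5 and 2 mg/kg it rose by 0.70 ± 0.11 (SE, limma adjusted p = 0.000289) and was the 1 of 10 genes called, against 1.13% of all probes. That step was not called without the slide block, after median centring or on the values of the authors' matrix. Mdm2 differed by 0.21 ± 0.12 (SE) and Bax by 0.10 ± 0.09 (SE) at 0.5 mg/kg, and neither passed the test. All 5 Btg2 arrays at 0.12 mg/kg lay below all controls, at -2.44 to -1.91, but the fitted difference of -0.53 ± 0.26 (SE) had a limma adjusted p of 0.754. An effect at any dose in males, by limma's moderated F test, was found for 5 of the 10 genes (Ccng1, Mdm2, Bax, Phlda3 and Gadd45g), against 18.2% of all probes, and for 1 of them without the slide block. The dimmer Cdkn1a probe also passed this F test (limma adjusted p = 0.0208), while the brighter one did not (limma adjusted p = 0.11). The Phlda3 difference from controls was largest at 0.12 mg/kg, at -0.31 ± 0.11 (SE), where it did not pass the test on its own (limma adjusted p = 0.412).

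**Figure D5:**
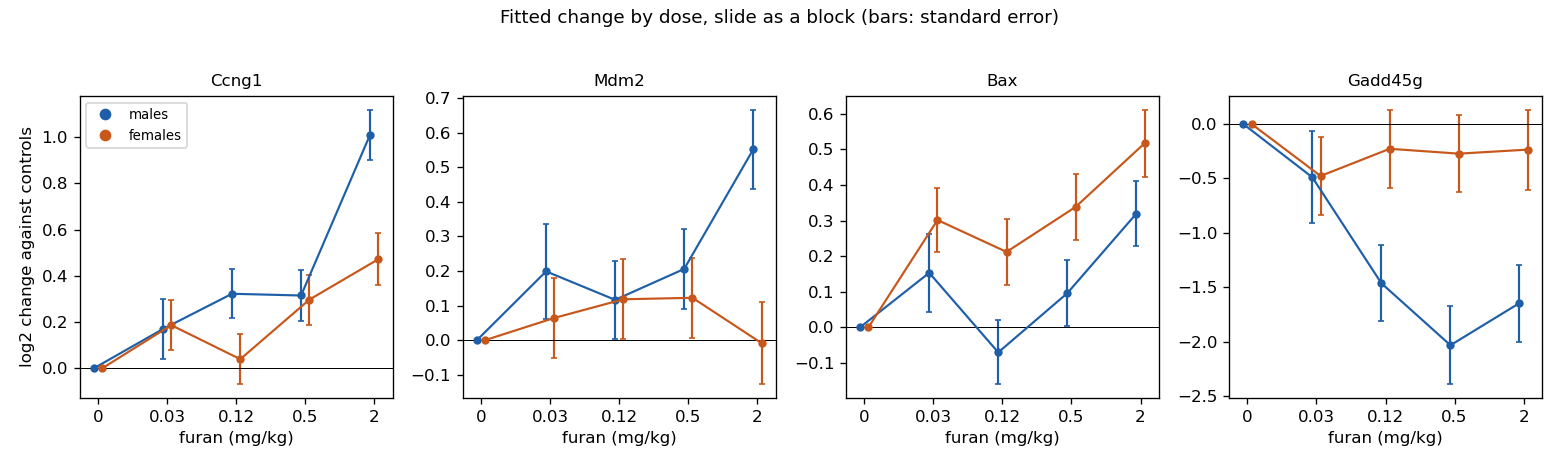
Fitted log2 change against the controls of the same sex at each furan dose in mg/kg, slide as a block, with bars of 1 standard error, for Ccng1, Mdm2, Bax and Gadd45g, with males in blue, females in orange, controls at 0, doses spaced evenly and a scale for each gene. Ccng1 in males is 0.32 at 0.5 mg/kg and 1.01 at 2 mg/kg, while Gadd45g in males is already -1.46 at 0.12 mg/kg.

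In females at 2 mg/kg, 0 of the 10 genes were called, against 1.4% of all probes (0.583% higher and 0.821% lower). For 4 of the 10 genes the unadjusted limma p was under 0.05, against 4235 of the 17661 probes. An adjusted p of at most 0.05 whatever the fold was reached by Bax, Ccng1 and Aen, 3 of the 10 genes against 5.97% of all probes, and all 3 were higher. The median change over the 7 p53 targets was 0.26, against 0.01 over all probes. Bax had log2 ratios of -1.42, -1.18, -1.09, -1.03 and -0.90 in control females and -0.75, -0.56, -0.46, -0.34 and -0.28 at 2 mg/kg. The groups did not overlap, and Bax rose by 0.52 ± 0.09 (SE, 1.43-fold, limma adjusted p = 0.00135); it passed the fold required under 4 of 10 other ways of processing. Aen was -0.75, -0.45, -0.41, -0.39 and -0.34 in control females and -0.20, -0.17, -0.16, -0.06 and 0.04 at 2 mg/kg. These groups did not overlap either, and the rise was 0.37 ± 0.10 (SE, 1.29-fold, limma adjusted p = 0.033). Bax and Aen were the 2 of 10 genes whose treated and control females did not overlap, which held for 4% of all probes.

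Ccng1 in females was -1.91, -1.85, -1.45, -1.40 and -0.67 in controls and -1.32, -0.65, -0.63, -0.17 and -0.14 at 2 mg/kg. In 4 of 5 treated females it lay above all controls, and it rose by 0.47 ± 0.11 (SE, 1.39-fold, limma adjusted p = 0.0122). On the 2 slides with both groups the differences were 0.53 and 0.50. Under other processing the change ran from 0.43 to 1.03, with no call; it was 0.87 without the slide block and 1.03 on the values of the authors' matrix. Mdm2 differed by -0.01 ± 0.12 (SE, 95% interval -0.25 to 0.23). The 2 Cdkn1a probes differed by 0.20 ± 0.14 (brighter) and 0.64 ± 0.27 (dimmer, SE), with limma adjusted p of 0.416 and 0.138. The dimmer probe ran from 0.34 to 0.91 under other processing and was called with array weights (0.91) and without control female 4 (0.91). Gadd45g, at -0.75 to 0.58 in control females and -0.76 to 0.86 at 2 mg/kg, differed by -0.24 ± 0.37 (SE, 95% interval -0.98 to 0.51). Gadd45b, at -0.41 ± 0.22 (SE), and Btg2, at -0.48 ± 0.27 (SE), had intervals that included 0.

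At lower doses 0 of the 10 genes were called in females: 0.0283% of all probes were called at 0.5 mg/kg, 0.0113% at 0.12 mg/kg and 0.017% at 0.03 mg/kg. At an unadjusted limma p under 0.05 the counts of the 10 genes were 3, 1 and 1. The counts of the 17661 probes were 2683, 1489 and 1144. Bax was higher at each of these doses, by 0.34, 0.21 and 0.30 (SE 0.09 each), with limma adjusted p of 0.0791, 0.548 and 0.468. All 5 females at 0.5 mg/kg lay above all control females for Bax. Between 0.5 and 2 mg/kg, 0 of the 10 genes and 0.0113% of all probes were called. The unadjusted limma p was under 0.05 for 0 of the 10 genes, against 1336 of the 17661 probes. An effect at any dose was found in females for Ccng1 and Bax, 2 of the 10 genes against 2.99% of all probes; this count was 0 under 5 of 10 other ways of processing.

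Whether furan at 2 mg/kg acted unequally on males and females was tested with an interaction term. A sex difference was called for 0 of the 10 genes, against 1.08% of all probes. The unadjusted limma p was under 0.05 for 5 of the 10 genes, against 3331 of the 17661 probes. The change in males minus that in females was 0.54 ± 0.15 for Ccng1 (SE, limma adjusted p = 0.0506) and 0.56 ± 0.16 for Mdm2 (SE, limma adjusted p = 0.0562), and neither passed the threshold. Under other processing the Ccng1 difference ran from 0.10 on the authors' matrix to 0.81 after median centring, and was 0.40 without the slide block, with no call. Without male 86 at 2 mg/kg both were called, at 0.64 and 0.67. Ccng1 was also called without female 85 at 2 mg/kg (0.62), and Mdm2 without male 81 at 2 mg/kg (0.64) or control female 4 (0.61). For Gadd45g the difference was -1.41 ± 0.49 (SE, limma adjusted p = 0.109), and for the brighter Cdkn1a probe -0.60 ± 0.19 (SE, limma adjusted p = 0.0863).

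Control males and females differed in 3 of the 10 genes, against 6.42% of all probes. Gadd45g was 2.49-fold higher in control males (1.31 ± 0.34 SE, limma adjusted p = 0.00523), so that the males at 0.12 to 2 mg/kg, with group means of -0.52 to -0.13, lay near the level of the control females, at 0.08 ± 0.50 (SD, n = 5). Gadd45b was lower in control males by 0.80 (SE 0.21, limma adjusted p = 0.00532), and Phlda3 was higher by 0.59 ± 0.11 (SE, limma adjusted p = 0.000177). The count was 0 with all 49 arrays and no slide block and 0 on the values of the authors' matrix. Aen was also higher in control males, by 0.48 ± 0.10 (SE, limma adjusted p = 0.000401), below the fold required.

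The wider p53 pathway was described with lists of other genes. Of 26 other p53 targets, 17 were tested, and at 2 mg/kg 1 of the 17 was called higher in males and 0 lower, against 2.67% and 2.4% of all probes, with a median change of -0.07 against -0.02 over all probes. The gene called was Tp53inp1, a partner of p53 in cell death, which rose by 0.63 ± 0.16 (SE, 1.55-fold, limma adjusted p = 0.00442). Fas, the death receptor, was higher by 0.45 ± 0.15 (SE, limma adjusted p = 0.0274) in males, below the fold required, and differed by 0.29 ± 0.16 (SE) in females. In females 0 of the 17 were called higher and 1 lower, against 0.583% and 0.821% of all probes, with a median of 0.17 against 0.01 over all probes. This was Gdf15, a secreted stress hormone, whose log2 ratio was 0.57, 0.65, 1.02, 1.35 and 1.56 in controls and -0.74, -0.31, -0.05, 0.12 and 0.37 at 2 mg/kg. The groups did not overlap, and it fell by 1.02 on the log2 scale (SE 0.20, limma adjusted p = 0.00255), while in males the difference was -0.26 ± 0.19 (SE). Sesn2, an antioxidant p53 target, differed in its response between the sexes by -0.78 (SE 0.19, limma adjusted p = 0.0336): it was -0.52 ± 0.16 in males and 0.26 ± 0.17 in females (SE).

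Mdm4, a relative of Mdm2 that also inhibits p53, differed by -0.19 ± 0.07 in males and 0.14 ± 0.08 in females (SE), and neither passed the test. Of 11 tested genes in the list of p53 and its regulators, 0 were called in either sex at 2 mg/kg. Over all probes, 5.07% were called in males and 1.4% in females. The unadjusted limma p was under 0.05 for 3 of the 11 in males and 0 in females. Of the 17661 probes, 6198 in males and 4235 in females had such a p. Of 8 tested Gadd45 partners and kinases of the p38 and JNK pathways, 0 were called in either sex. Their medians were 0.08 in males and 0.03 in females, against -0.02 and 0.01 over all probes. The unadjusted limma p was under 0.05 for 3 and 2 of the 8, beside the same 6198 and 4235 of the 17661 probes. Of 12 tested members of the BCL2 and caspase families, 1 was called: Bak1, the close relative of Bax, rose in males by 0.70 ± 0.14 (SE, 1.63-fold, limma adjusted p = 0.000396). The share of all probes called higher in males was 2.67%. Of 12 tested G1 cyclins, kinases and inhibitors, 1 was called, in males: Rb1, the retinoblastoma protein, fell by 0.61 on the log2 scale (SE 0.13, limma adjusted p = 0.000936). The share of all probes called lower in males was 2.4%.

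Of 17 immediate early and stress genes, 0 were called higher and 2 lower in males, and 0 higher and 3 lower in females. Over all probes, 2.67% were called higher and 2.4% lower in males, and 0.583% and 0.821% in females. The medians of the list were -0.16 in males and -0.30 in females, against -0.02 and 0.01 over all probes. In males Dusp1, a phosphatase of p38 and JNK, fell by 1.40 (SE 0.27, limma adjusted p = 0.000263) and Jund fell by 0.63 (SE 0.16, limma adjusted p = 0.00493) on the log2 scale. In females the genes called were Ppp1r15a (Gadd34 in older usage), which fell by 0.71, Jund by 0.68 and Zfp36 by 0.61 on the log2 scale. Atf3, often raised together with p53 targets by DNA damage, was higher in males by 0.60 ± 0.29 (SE, limma adjusted p = 0.129) and differed by -0.15 ± 0.30 (SE) in females, and neither passed the test.

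The NRF2 targets are given beside these genes as the other stress response named in the background. Of 15 tested, 5 were called higher and 0 lower in males, and 3 were called higher and 0 lower in females. Over all probes, 2.67% were called higher and 2.4% lower in males, and 0.583% and 0.821% in females. The medians of the list were 0.38 in males and 0.20 in females, against -0.02 and 0.01 over all probes. Akr7a3, an aldehyde reductase, rose by 2.93 ± 0.35 (SE, 7.61-fold, limma adjusted p = 3.93e-07) in males and by 1.65 ± 0.36 (SE, 3.14-fold, limma adjusted p = 0.00663) in females. Gstp1, a glutathione transferase, rose 6.44-fold in males and 2.14-fold in females, and Srxn1 and Nqo1 rose 1.78-fold and 1.66-fold in males. Ephx1 rose 1.71-fold in females. The response of Gstp1 differed between the sexes, by 1.59 ± 0.42 (SE, limma adjusted p = 0.0434). Among the 10 genes, by their brightest probes, Ccng1 had the largest rise, at 2.02-fold. No test compared one list with another, and with other processing the NRF2 counts ran from 3 to 6 in males and from 0 to 5 in females.

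Markers of other liver cells moved in part with the top dose. Over all probes, 2.67% were called higher and 2.4% lower in males, and 0.583% and 0.821% in females. Of 6 tested bile duct cell markers, 1 was above background on all 48 arrays. Epcam, Krt19 and Spp1, 3 of the 6, were called higher in males at 2 mg/kg. The mean log2 ratio of the list ran from -1.34 to -1.05 in control males and from -1.23 to -0.28 at 2 mg/kg. In females 1 of the 6, Epcam, was called higher, with ranges of -1.21 to -0.98 and -0.96 to -0.63. Of 7 stellate cell markers, Col3a1 and Lrat were called higher in males, 2 of 7, with ranges of -0.92 to -0.06 and -0.80 to 0.50. Of 4 red cell markers, 2 were called lower in males, with ranges of 2.79 to 5.43 and 2.46 to 4.02. At 2 mg/kg 0 of 8 hepatocyte, 7 macrophage, 4 endothelial, 4 lymphocyte and 6 dividing cell markers were called in limma in either sex. Above background on all 48 arrays were 6 of 7 stellate, 5 of 7 macrophage, 3 of 4 endothelial and 3 of 4 red cell markers. Of the lymphocyte markers 0 of 4 were, and of the dividing cell markers 2 of 6. Though not called, all 8 hepatocyte markers had fitted changes below 0 in males, with a median of -0.42 against -0.02 over all probes. The unadjusted limma p was under 0.05 for 7 of these 8, against 6198 of the 17661 probes. The mean of the hepatocyte list ran from 5.95 to 7.91 in control males and from 5.79 to 7.32 at 2 mg/kg; after adjustment for slide it ran from 6.72 to 7.04 and from 6.40 to 6.62, and up to 4 of the 8 were called in males under other processing. Cd3e, which defines T cells, did not pass the filter. The part of these cells in the values of the 10 genes was not tested, and in bulk liver fewer cells of a type and less RNA per cell cannot be told apart.

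The genes nearest in pattern were sought by Pearson correlation of slide-adjusted log2 ratios over 48 arrays, which share slides and groups. Nearest to Ccng1 were Abcb1b, a drug efflux pump (r = 0.871), Gstp1 (0.862) and Tmem120a (0.853). Nearest to Gadd45g were Myc (0.723), Cish (0.706), an inhibitor of cytokine signalling, and Defb25 (0.635). Nearest to the brighter Cdkn1a probe were Uqcr11 (0.887), Hmx1 (0.859) and Psd (0.841). Within the 10 genes the highest correlations were of Ccng1 with Mdm2 (0.647) and with Bax (0.629).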

How the data were processed

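Liver RNA (Cy5) and a universal rat reference RNA (Cy3) of 49 rats shared 2-colour Agilent arrays with no dye swaps, read with Agilent Feature Extraction 10.7.3.1 on a design annotated on rn4. The deposited scanner files give median pixel intensities and a log10 ratio that the software background subtracted and dye normalised. The authors' matrix gives log2 ratios made in R. The names of its columns matched the scanner files within a group but not array by array (7 of 49 arrays matched the column of their own sample best, 46 of 49 a column of their group), so it was used by group only; 0 of its columns were left out. Depth has no counterpart on arrays, whose number limits the precision.

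Intensities were corrected by normexp (offset 50) and normalised by loess within arrays in limma 3.58.1 under R 4.3.3 with the data.table package, version 1.17.8, flagged spots were left out and the spots of a probe averaged. The filter kept probes detected in liver on 4 or more arrays of any group. Probes were named through RefSeq (18004 of 30367, 59.3%). The model had 1 mean per sex and dose plus slide; all tests are 2-sided. Each gene stands by its brightest probe; the rule was to name the genes of each list called at 2 mg/kg, with Fas, Gdf15, Mdm4 and Atf3 in any case, but 1 NRF2 target and the 2 red cell markers called in males are counted and not reported here by name. The 10 genes, lists and tests were chosen with earlier results of these data known. The steps were tested on simulated data. Alternatives changed the slide term, the arrays, the normalisation, the filter, the probe summary and the array weights. Some male and female groups of a dose share animal numbers, but the animals differ, so the number pairs no samples.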

Additional observations from a re-analysis of the deposited data

Results flagged for a closer look

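Of 90 groups of 5 arrays examined for the 10 genes, 5 held an array that stood apart from the rest by Dixon's criterion, which chance does in about 5% of groups. For the brighter Cdkn1a probe, female 30 at 0.03 mg/kg had a log2 ratio of 1.66, against 0.48 to 0.79 in the other females of the group, and male 70 at 0.5 mg/kg had 2.01, against 0.50 to 0.88. Male 70 was also low for Phlda3, at -0.99 against -0.79 to -0.74. For Phlda3, male 52 at 0.12 mg/kg had -0.75, against -1.36 to -1.24. For Aen, control female 9 had -0.75, against -0.45 to -0.34.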

How the results depend on the processing

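Among the log2 changes at 2 mg/kg under other settings, 735 kept their direction and their side of the call, 17 gained a call, 2 lost one and 24 changed sign. Calls of Ccng1 and Gadd45g in males at 2 mg/kg held under all 10 other ways of processing. Median centring moved the median of all probes in males at 2 mg/kg to 0.11, and changes under it are relative to that shift. The causes of the differences below were not tested.

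Without the slide block on 48 arrays, the number of the 10 genes called was 0 in males at 0.12 mg/kg, 0 between 0.5 and 2 mg/kg in males and 1 in females at 2 mg/kg (Bax), and the F test over doses called 1 gene in males and 0 in females. With all 49 arrays and slide as a block, the counts were 0 in males at 0.12 mg/kg and 0 for any dose in females. With all 49 arrays and no slide block, the counts were 0 in males at 0.5 mg/kg, 0 at 0.12 mg/kg, 0 between 0.5 and 2 mg/kg, 1 in the top-dose females, 0 between control sexes, and 1 and 0 for any dose in males and females; the authors' matrix values gave the same counts of 0, 0, 0, 1, 0, 1 and 0. Median centring gave 0 in males at 0.12 mg/kg, 0 between 0.5 and 2 mg/kg and 0 for any dose in females. The scanner's log ratio gave 1 in females at 2 mg/kg and 0 in males at 0.12 mg/kg. With no filter the count was 0 in males at 0.12 mg/kg and 1 for any dose in females. Slide as a random block gave 1 for any dose in females, and array weights gave 3 for any dose in males. The share of all probes called under each of these settings is not given here, so these counts have no comparison.

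Signs changed as follows, in log2 units. In females at 2 mg/kg without the slide block, on 48 or 49 arrays, Cdkn1a was -0.31, Mdm2 0.21 and Gadd45a -0.0802. On the authors' matrix Cdkn1a was -0.11, Mdm2 0.37 and Gadd45g 0.0499. Mdm2 in females was 0.015 with slide as a random block, 0.0165 on the scanner's log ratio, 0.045 as the mean over probes and 0.021 with array weights. After median centring Gadd45a in females was -0.011, Btg2 in males 0.0022, and the sex differences of Bax and Phlda3 were 0.065 and 0.031; on the scanner's log ratio that of Phlda3 was 0.0035. Cdkn1a in males as the mean over probes was 0.32, and the sex difference of its dimmer probe with array weights was -0.089. That probe in males was 0.99, with no call, without the slide block.

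Leaving out 1 array at a time, the counts ran from 0 to 1 in males at 0.12 mg/kg, from 0 to 2 for the sex difference, from 2 to 5 for any dose in males and from 0 to 2 for any dose in females (0 without female 83 at 2 mg/kg, and for males 2 without male 84 or 87). Over all probes the counts in these fits ran from 23 to 78 in males at 0.12 mg/kg. They ran from 40 to 566 for the sex difference. For any dose they ran from 2001 to 3634 in males and from 176 to 831 in females. Gadd45a in females ran from -0.13 to 0.14, Mdm2 in females from -0.066 to 0.068, and Phlda3 in males from -0.0021 to 0.10. With a replicate block on the animal number, the gene counts were 0 for the sex difference and 3 between control sexes, as without it. Same-numbered animals deviated with correlations from -0.27 to 0.57 over 8 pairs.

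Slides 5 and 6 held no controls, so arrays on them enter a comparison with controls only through the slide terms. Few arrays limited the precision: 5 a group, and 3 males at 0.03 mg/kg.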
